A study of Mus musculus with 24 samples.

Results

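The 8 genes described here belong to the acetylcholine system and were followed in the nucleus accumbens (NAc), the ventral part of the striatum. They were Chat, Slc18a3, Ache and Slc5a7, which make, load and break down the transmitter and take up choline, the muscarinic receptor genes Chrm1, Chrm2 and Chrm3, and Lhx8, a transcription factor gene of cholinergic neurons. The 8 genes were taken as a list of names, with no threshold on a measured value, from the 52636 gene identifiers in the count files. RNA-seq libraries were made from 24 C57BL/6 mice at an age of 50 days, with 1 library per mouse and both NAc of a mouse pooled. Each sex gave 6 Con and 6 MSUS mice. MSUS, or maternal separation combined with unpredictable maternal stress, took pups from the dam for 2 h a day on postnatal days 1 to 14 according to the series description, and the study's methods give a longer daily time. Con litters were left with their dams. The labels give males a stage of the estrous cycle and give none to 6 of the 12 females, so no stage was used.

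Cholinergic interneurons are a sparse population of large, tonically active neurons that supply most of the acetylcholine of the striatum. Choline acetyltransferase (Chat) joins choline to an acetyl group, the vesicular transporter (Slc18a3) loads the product into vesicles, acetylcholinesterase (Ache) cleaves it after release, and the high-affinity transporter (Slc5a7) returns choline to the terminal. The receptors of Chrm1 and Chrm3 couple to Gq and phospholipase C, whereas that of Chrm2 couples to Gi/o and serves as an autoreceptor on cholinergic neurons. A tissue punch holds all cell types of the region, and in such bulk RNA fewer cells of a type and less RNA per cell cannot be told apart.

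Sense-strand counts summed to between 39923666 and 70575745 per library. Some uniquely mapped pairs were assigned to no gene on the sense strand. Their share was 31.0% to 34.8% in Con females and 36.3% to 43.9% in MSUS females. These groups did not overlap, and the share was 31.0% to 44.7% over all libraries. Such pairs can still lie within a gene, in an intron or on its other strand. Markers of striatal projection neurons were high in all punches, with a sum of 9 genes between 1596 and 4546 CPM, that is, counts scaled to the library total. The sum of 8 markers of cortical excitatory neurons ranged much more widely, from 194 to 1592 CPM (median 546) in Con and from 64.6 to 689 CPM (median 141) in MSUS females, and from 96.5 to 1099 CPM in Con and from 97.8 to 1588 CPM in MSUS males. None of the 8 was at 0 in any library. Con female 3 and MSUS male 6 held the highest cortical sums, at 1592 and 1588 CPM, and the lowest striatal sums, at 1596 and 1962 CPM. Con male 6 held the highest sum of 6 genes of the neighbouring basal forebrain and septum, at 150 CPM against at most 78.5 CPM in the other 23 mice, including Ngfr at 23.6 CPM and Gbx1 at 12.7 CPM. Values without one or more of these mice stand beside the results that moved most without them.

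Slc18a3 (ENSMUSG00000100241.1, GRCm38 chr14:32462438-32464850, minus strand) is a single exon that lies in an intron of Chat (ENSMUSG00000021919.7, chr14:32408203-32465989) and is read from the same strand. Reads of unspliced Chat RNA from that intron would be counted for Slc18a3, and their part in its levels was not tested. The RefSeq start sites of the 2 genes are 1059 bases apart. The stretch upstream of each start that no annotated exon covers is printed because these 2 genes had the closest correlation of levels among the 28 pairs of the list. Both sequences are RefSeq's on GRCm38.p6, 5′ to 3′ on the minus strand, with capitals for the short core of the cAMP response element, TGACG on either strand (CGTCA as printed).
Chat, chr14:32465990-32466159: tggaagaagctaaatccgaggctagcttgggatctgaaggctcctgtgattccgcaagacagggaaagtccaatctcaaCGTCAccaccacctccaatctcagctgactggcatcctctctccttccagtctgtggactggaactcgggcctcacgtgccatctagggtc
Slc18a3, chr14:32464851-32465041: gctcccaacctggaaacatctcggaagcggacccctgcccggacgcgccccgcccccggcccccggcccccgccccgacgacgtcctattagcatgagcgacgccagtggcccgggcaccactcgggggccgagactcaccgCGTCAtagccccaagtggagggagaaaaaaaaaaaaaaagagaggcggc
The windows differ in base composition, with 54.7% GC for Chat and 67.5% for Slc18a3. A TGACG on either strand is also found in 17.8% of the 32851 promoters of 250 bases in the RefSeq table. Of the 7 listed genes with an entry in that table, the other 5 held no TGACG in the 250 bases before their start. None of the 7 held TTCAGCACC, a core of the element bound by the neuronal repressor REST that 0.301% of promoters hold, nor TAATTA, a core bound by LIM homeodomain factors that 4.84% hold. The GC box GGGCGG occurred 4 times for Ache, 2 times for Slc18a3 and 1 time for Chrm2, and 32.7% of promoters hold it. Chrm1 has no entry. These matches are descriptions of letters and not of binding.

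The other genes lie on separate chromosomes. Slc5a7 (ENSMUSG00000023945.6) is at chr17:54273590-54299034 on the minus strand, Ache (ENSMUSG00000023328.14) at chr5:137287519-137294466 on the plus strand and Lhx8 (ENSMUSG00000096225.7) at chr3:154306294-154330659 on the minus strand. The receptor genes are Chrm1 (ENSMUSG00000032773.9) at chr19:8663789-8683587 on the plus strand, Chrm2 (ENSMUSG00000045613.9) at chr6:36388084-36528414 on the plus strand and Chrm3 (ENSMUSG00000046159.16) at chr13:9875486-10360847 on the minus strand. Chrm3 spans 485362 bases, in which 6253 bases are exonic, and the introns hold 4 gene models on its own strand.

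Levels between genes were compared in CPM per kilobase of exon. Chrm1 was the most abundant of the 8 at 27.0 ± 2.59 (SD, n = 24), followed by Ache at 14.8 ± 2.17 and Slc5a7 at 5.57 ± 1.63. Chrm1 exceeded Ache in 23 of 24 mice, all but Con male 6, and Ache exceeded Slc5a7 in 24 of 24. Chrm3 at 3.71 ± 1.91, Slc18a3 at 2.95 ± 0.988, Chrm2 at 2.75 ± 0.829, Chat at 2.65 ± 0.908 and Lhx8 at 2.50 ± 1.34 lay within their spread of one another, and each of the first 4 exceeded the next in 10 to 17 of 24 mice. Among the receptors outside the list, Chrm4, the Gi/o-coupled receptor of direct-pathway projection neurons, had 34.4 ± 7.53 and exceeded Chrm1 in 22 of 24 mice. Chrm5, a Gq-coupled receptor known from dopamine neurons, had 1.62 ± 0.798. The 3 genes of synthesis and transport kept narrow ratios within a mouse, with Slc18a3 over Chat between 0.979 and 1.27 per kilobase (median 1.13) and Slc5a7 over Chat between 1.63 and 2.74 (median 2.12).

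The genes differed in how much they varied between mice. The highest mouse exceeded the lowest by 10.8-fold for Lhx8, 6.56-fold for Chat, 5.21-fold for Slc18a3, 4.33-fold for Slc5a7, 4.23-fold for Chrm3 and 3.09-fold for Chrm2. For Ache it was 1.80-fold and for Chrm1 1.51-fold. The spread of Chrm1 was narrowest in Con females, where its coefficient of variation was 3.66%, against 6.09% in the MSUS females and 11.1% and 11.5% in Con and MSUS males.

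**Figure D1:**
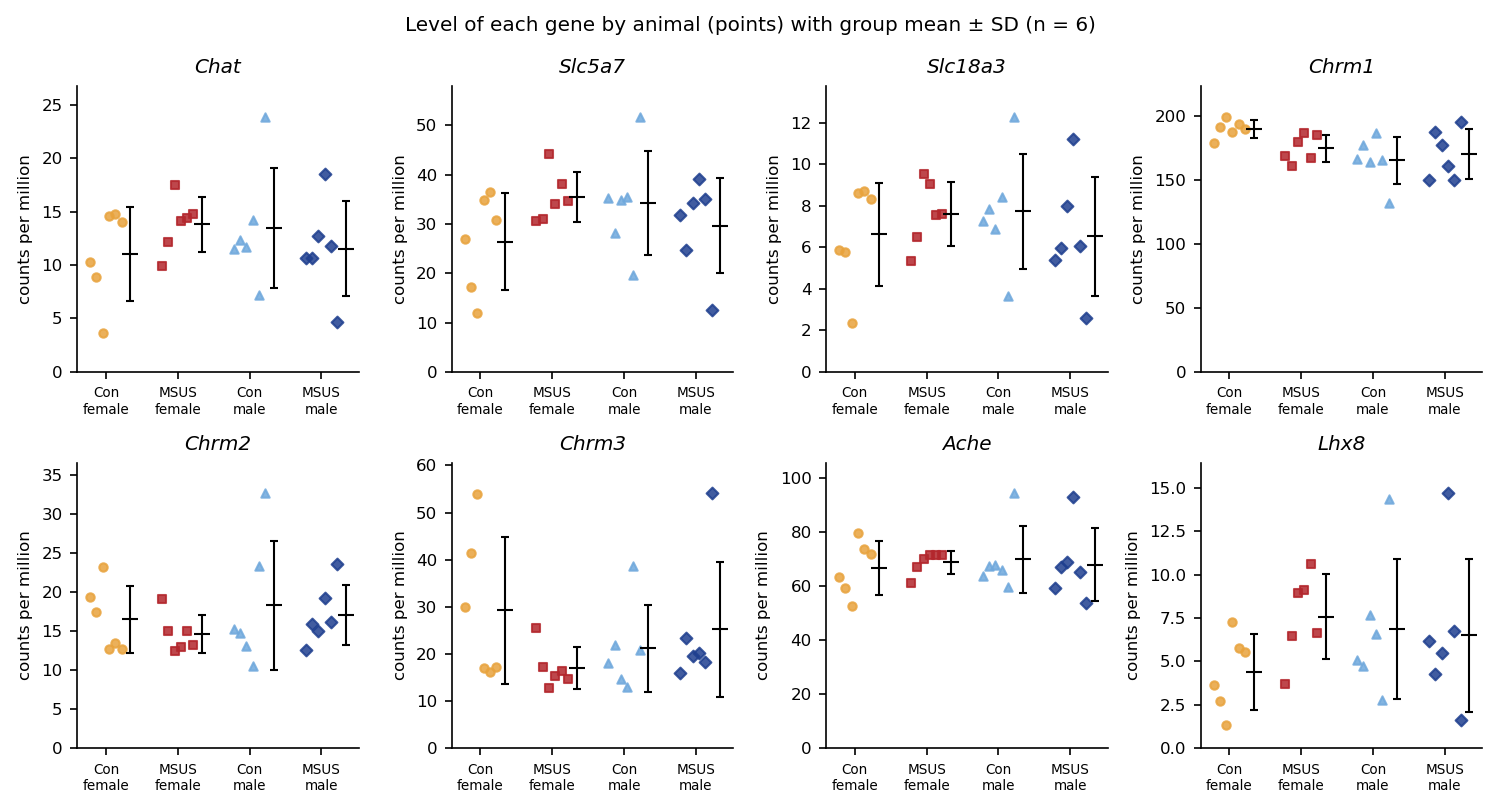
Level of each gene in CPM by mouse, in 4 groups of 6, with the group mean and SD beside the points; all axes start at 0. In 0 of the 8 genes did the 6 MSUS mice of either sex lie wholly above or below the 6 Con mice, where 7.3% of all genes tested did so in females and 0.0435% in males, and single mice, such as Con female 3 and MSUS male 6, sat far from their groups in several genes.

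The genes of synthesis, loading and uptake were compared in females first. Chat lay between 3.64 and 14.8 CPM (median 12.1) in Con females and between 9.88 and 17.5 CPM (median 14.3) in MSUS females. The low end of the Con females was a single mouse, Con female 3, and the groups overlapped. Slc5a7 lay between 11.97 and 36.6 CPM (median 28.9) in Con females and between 30.7 and 44.2 CPM (median 34.3) in MSUS females, where all 6 mice exceeded the Con median. Slc18a3, the shortest of these genes, lay between 2.36 and 8.73 CPM (median 7.10) in Con females and between 5.36 and 9.53 CPM (median 7.58) in MSUS females. None of the 3 passed edgeR's test in females, with log2 fold changes of 0.33 (SE 0.28, edgeR adjusted p = 0.439) for Chat, 0.43 (SE 0.24, edgeR adjusted p = 0.234) for Slc5a7 and 0.20 (SE 0.27, edgeR adjusted p = 0.629) for Slc18a3. Without Con female 3 the log2 fold changes were 0.15, 0.28 and 0.03.

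Ache, which ends the signal, did not pass the test in females either. It lay between 52.6 and 79.6 CPM (median 67.8) in Con females and between 61.2 and 71.8 CPM (median 70.9) in MSUS females, with a log2 fold change of 0.05 (SE 0.088, edgeR adjusted p = 0.731). The lincRNA model Gm42456 overlaps an exon of Ache on the other strand, and its own counts rose in MSUS females, from a mean of 6.28 to 7.80 CPM (log2 fold change 0.32, SE 0.11, edgeR adjusted p = 0.0675). Of all genes tested in females 25.1% were called. Of the gene models that overlap the 8 genes on the other strand, only Gm42456 is described. Lhx8, a LIM homeodomain factor needed for the cholinergic fate, lay between 1.36 and 7.29 CPM (median 4.60) in Con females and between 3.72 and 10.6 CPM (median 7.80) in MSUS females. Of the MSUS females, 5 of 6 exceeded the Con median, yet the ranges overlapped widely. Its log2 fold change of 0.79 (SE 0.36) did not pass the test (edgeR adjusted p = 0.152), and was 0.60 without Con female 3.

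Chrm1 was the single gene of the 8 called in females, at an adjusted p under 0.10. In Con females it lay between 179 and 200 CPM (median 191), and in MSUS females between 161 and 187 CPM (median 174). All 6 MSUS females were below the Con median, although 3 of them exceeded the lowest Con female. The mean fell from 190 ± 6.96 to 175 ± 10.7 CPM (SD, n = 6 each), a log2 fold change of -0.12 (SE 0.044, edgeR adjusted p = 0.0809). Among all 20571 genes tested in females 25.1% were called and 11.9% were called lower, so that 1 of 8 is no more than the share among all genes. DESeq2, which called 25.8% of the genes it tested, called Chrm1 and Chrm3. Leaving out 1 female ended the call in 8 of 12 cases (Con female 2, 3, 5 or 6, or MSUS female 1, 2, 3 or 5), at log2 fold changes between -0.13 and -0.09. Once GC content and length of the genes were adjusted for, the log2 fold change was -0.03 (edgeR adjusted p = 0.682). With the share of pairs that overlapped no gene as a covariate it was -0.07 (edgeR adjusted p = 0.840), in a fit that called 0 genes in all, with 1174 at an unadjusted p under 0.05.

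Chrm3 showed the largest difference among the 3 receptor genes of the list without passing the test. It lay between 16.3 and 53.9 CPM (median 23.5) in Con females and between 12.8 and 25.5 CPM (median 15.9) in MSUS females. Con female 3 had 53.9 CPM, Con female 2 had 41.4 CPM and Con female 1 had 29.9 CPM, each above all MSUS females. The remaining Con females lay within the range of the MSUS females. The log2 fold change was -0.78 (SE 0.32, edgeR adjusted p = 0.119). The DESeq2 adjusted p was 0.0828, and without Con female 3 the log2 fold change was -0.51 (edgeR adjusted p = 0.248). Chrm2 lay between 12.7 and 23.2 CPM (median 15.5) in Con females and between 12.5 and 19.1 CPM (median 14.1) in MSUS females, with a log2 fold change of -0.17 (SE 0.16, edgeR adjusted p = 0.490), and of -0.05 without Con female 3. Of the gene models in introns of Chrm3 on its strand, the 2 that could be tested had log2 fold changes of -0.10 (Gm47405, SE 0.33) and 0.00 (Gm47411, SE 0.38), neither of which passed.

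**Figure D2:**
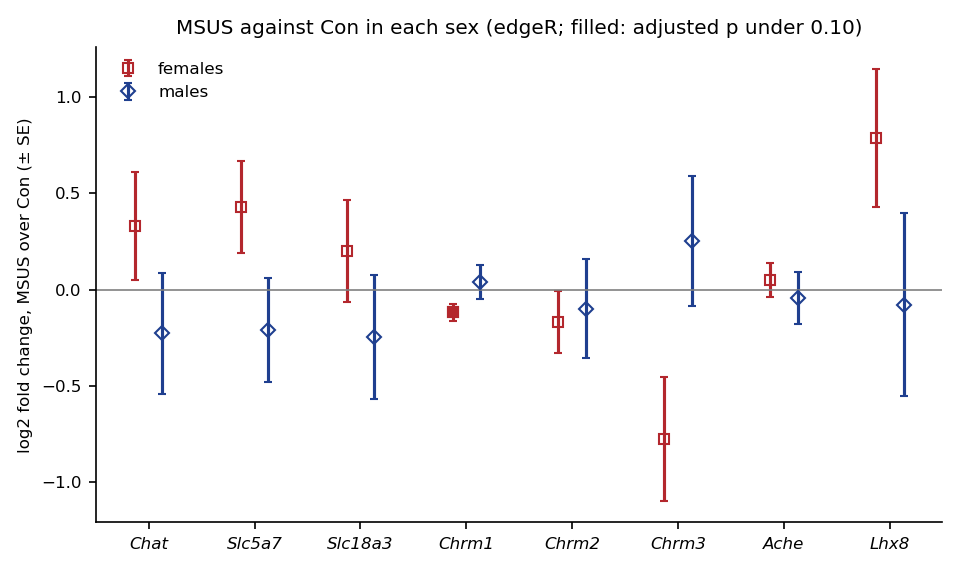
Log2 fold change of MSUS over Con (y axis) with its standard error for the 8 genes, in females (squares) and males (diamonds), by edgeR; filled symbols passed an adjusted p of 0.10. Chrm1 in females, at -0.12, is the single filled symbol, and its error bar is the shortest.

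Cortical marker levels moved with several of these genes in females. In the Con and MSUS females 2 of the 8 cortical markers were called lower after MSUS. Among all genes tested in females 25.1% were called, and 11.9% were called lower. The 2 markers were Emx1 (log2 fold change -1.82, SE 0.69, edgeR adjusted p = 0.0944) and Fezf2 (-1.82, SE 0.69, edgeR adjusted p = 0.0931). All 8 had fold changes below 0, with a median of -1.82. With a score of the 8 cortical markers as a covariate, the log2 fold change of Chrm3 went from -0.78 to -0.07 (SE 0.29), that of Lhx8 from 0.79 to 0.02 (SE 0.21) and that of Slc5a7 from 0.43 to 0.06 (SE 0.21). Those of Chat, Slc18a3, Ache and Chrm2 changed sign. That of Chrm1 stayed at -0.13 (SE 0.055), with an edgeR adjusted p of 0.175, in a fit that called 1725 genes in place of 5156.

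**Figure D3:**
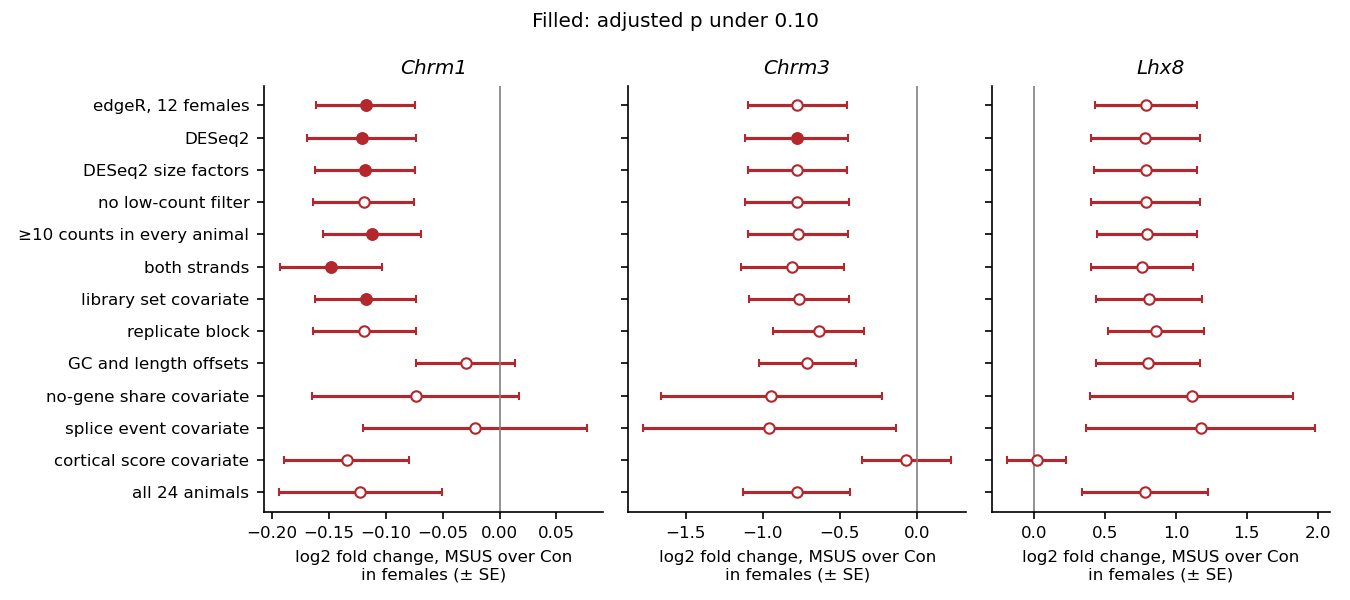
Log2 fold change of MSUS over Con in females (x axis, with standard error) for Chrm1, Chrm3 and Lhx8 under 13 fits named on the y axis; filled circles passed an adjusted p of 0.10. Chrm1 was called in 6 of the 13 and came closest to 0 with the splice event covariate and the GC and length offsets, while Chrm3 and Lhx8 came closest to 0 with the cortical score.

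In males none of the 8 genes was called. Log2 fold changes of MSUS over Con lay between -0.25 for Slc18a3 (SE 0.32) and 0.25 for Chrm3 (SE 0.34), and each edgeR adjusted p was 1.00. By edgeR 0 of all 20691 genes were called (0%), with 191 at an unadjusted p under 0.05, and DESeq2 also called 0, with 304. Chat lay between 7.19 and 23.9 CPM (median 12.04) in Con males and between 4.70 and 18.6 CPM (median 11.2) in MSUS males. Slc5a7 lay between 19.7 and 51.8 CPM (median 35.0) and between 12.5 and 39.2 CPM (median 33.04), and Slc18a3 between 3.66 and 12.3 CPM (median 7.55) and between 2.58 and 11.2 CPM (median 6.01). In each of these the highest Con male was Con male 6 and the lowest MSUS male was MSUS male 6, and the groups overlapped.

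Lhx8 lay between 2.81 and 14.3 CPM (median 5.82) in Con males and between 1.63 and 14.7 CPM (median 5.84) in MSUS males, nearly the same range. Ache lay between 59.7 and 94.6 CPM (median 66.9) and between 53.9 and 93.0 CPM (median 66.3). For the receptors, Chrm1 lay between 133 and 187 CPM (median 166) in Con males and between 150 and 196 CPM (median 169) in MSUS males. Chrm2 lay between 10.6 and 32.7 CPM (median 15.1) and between 12.6 and 23.6 CPM (median 16.1), and Chrm3 between 13.1 and 38.7 CPM (median 19.5) and between 15.9 and 54.1 CPM (median 19.9). The Con and MSUS males overlapped in every gene, as in all but 0.0435% of the genes tested in males. The high ends of Lhx8 and Ache in MSUS males were MSUS male 4. Its 6 basal forebrain and septum genes summed to 78.5 CPM, with Ngfr at 5.73 CPM, Gbx1 at 9.46 CPM and Zic1 at 27.8 CPM. In MSUS male 5 that sum was 72.3 CPM, with Ngfr at 2.61 CPM, Gbx1 at 4.15 CPM and Zic1 at 37.6 CPM. The part of these genes in the levels of MSUS male 4 was not tested. Without Con male 6 and MSUS male 6 all 8 log2 fold changes changed sign, and none was called.

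The comparison of females with males asked whether the genes differ by sex. In Con mice 0 of the 8 were called by edgeR, where 2.64% of 20641 genes were, or 544, a number that went from 20 (without Con female 4) to 1395 (without Con male 5) when 1 mouse was left out. Chrm1 came nearest, as all 6 Con females exceeded the Con male median (190 against 166 CPM in the mean), with a log2 fold change of 0.21 (SE 0.069, edgeR adjusted p = 0.141). DESeq2 called it at an adjusted p of 0.0951, and 7.04% of the genes in that test. Without Con female 3 and Con male 6 its log2 fold change was 0.13 (SE 0.046, edgeR adjusted p = 0.224), and it was 0.14 once GC content and length were adjusted for. The other 7 lay between -0.63 for Lhx8 (SE 0.43) and 0.47 for Chrm3 (SE 0.36). Without Con female 3 and Con male 6 these were -0.10 and 0.19, and those of Chat, Slc18a3 and Ache changed sign. In MSUS mice 0 of the 8 were called, where 0.135% of 20714 genes were, and the log2 fold changes lay between -0.57 for Chrm3 (SE 0.30) and 0.26 for Chat (SE 0.25), and without MSUS male 6 these were -0.20 and 0.097. At an unadjusted p under 0.05 there were 3670 genes in Con and 1511 in MSUS mice.

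The difference between the female and the male effect of MSUS was tested directly as a group-by-sex interaction. None of the 8 passed, as none of all 21500 genes did by edgeR (0%), with 4031 at an unadjusted p under 0.05. The count over all genes rested on MSUS male 1, without which edgeR called 3031 genes. DESeq2 called 2.22% of its genes and none of the 8. The largest interactions were those of Chrm3 at -1.03 on the log2 scale (SE 0.49, edgeR adjusted p = 0.261) and Lhx8 at 0.86 (SE 0.62, edgeR adjusted p = 0.436). Without Con female 3, Con male 6 and MSUS male 6 they were -0.39 (SE 0.41) and 0.12 (SE 0.49). A call of Chrm1 in females and not in males is therefore not shown to be a difference between the sexes, since its interaction was -0.16 (SE 0.10, edgeR adjusted p = 0.363).

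The remaining genes of the pathway were followed as 6 lists. Of 58 genes 49 were tested in females, and 3 rose and 9 fell, with a median log2 fold change of -0.07 against -0.003 over all genes. That is 12 of 49 beside the 25.1% called among all genes. In males, in either comparison of the sexes and in the interaction, 50 were tested and edgeR called 0.

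Of the receptors outside the list, Chrm5 rose in MSUS females, from 1.79 ± 0.623 to 3.20 ± 1.26 CPM (SD, n = 6), a log2 fold change of 0.84 (SE 0.29, edgeR adjusted p = 0.0703). With the cortical score as a covariate this was 0.27 (edgeR adjusted p = 0.604). Chrm4 did not pass, at 51.9 ± 16.2 and 51.5 ± 6.58 CPM. Of 16 nicotinic subunit genes 9 were tested, and Chrna10 rose (log2 fold change 0.72, SE 0.24) at a level of under 1 CPM while Chrnb2, a beta subunit of most neuronal nicotinic receptors, fell (-0.10, SE 0.033). With GC and length offsets Chrnb2 was at -0.0056 (edgeR adjusted p = 0.944), and with the cortical score Chrna10 was at 0.40 (edgeR adjusted p = 0.423). Among 7 accessory proteins of nicotinic receptors Lynx1, Ly6e and Lypd6 fell, by 0.57, 0.53 and 0.21 on the log2 scale. Lynx1, a membrane-anchored inhibitor of nicotinic receptors, went from a mean of 226 to 152 CPM, and its log2 fold change was -0.27 with the cortical score as a covariate (edgeR adjusted p = 0.313). Those of Ly6e and Lypd6 were then -0.16 (edgeR adjusted p = 0.557) and -0.12 (edgeR adjusted p = 0.539), so that none of the 3 was called.

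Choline handling moved in both directions. Chka, the kinase that commits choline to phospholipid synthesis, lay between 67.4 and 71.3 CPM in Con females and between 77.9 and 83.9 CPM in MSUS females. These groups did not overlap, as for 7.3% of all genes tested in females, and the log2 fold change was 0.21 (SE 0.029, edgeR adjusted p = 0.00206). Slc44a1 and Slc44a2, choline transporter-like genes, fell by 0.17 and 0.15, and neither was called with the cortical score (edgeR adjusted p = 0.180 and 0.188). Of 12 genes of Gq-coupled signalling, into which Chrm1 and Chrm3 feed, Plcb1 fell (-0.19, SE 0.043, edgeR adjusted p = 0.0128), from 400 to 459 CPM in Con females to 351 to 395 CPM in MSUS females. Of 11 genes of Gi/o-coupled signalling Gnao1 fell (-0.20, SE 0.040, edgeR adjusted p = 0.00831), from 767 to 863 CPM to 687 to 749 CPM, as did Kcnj9 (-0.56, SE 0.22), a subunit of the potassium channels that muscarinic receptors open. Kcnj9 was at -0.06 with the cortical score (edgeR adjusted p = 0.871) and was not called with the offsets or a replicate block either. The groups did not overlap for Plcb1 or Gnao1. With the cortical score Chka, Plcb1 and Gnao1 stayed called (edgeR adjusted p = 0.0194, 0.0831 and 0.0801). Gnao1 was no longer called with GC and length offsets (-0.08, edgeR adjusted p = 0.181), whereas Plcb1 and Chka were, and none of these 3 was with the share of pairs that overlapped no gene as a covariate (edgeR adjusted p = 0.760 for each).

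Of the 6 further markers of cholinergic interneurons none was called in females, and all 6 fold changes were above 0, with a median of 0.28. Isl1, a LIM homeodomain factor that acts with Lhx8, had the largest (0.67, SE 0.31, edgeR adjusted p = 0.157). The sum of the 6 lay between 40.5 and 120 CPM in Con and between 86.3 and 124 CPM in MSUS females, and between 67.6 and 154 CPM in Con and between 46.4 and 133 CPM in MSUS males. Slc17a6, of the 6 markers of the basal forebrain and septum, fell in MSUS females (-0.69, SE 0.26, edgeR adjusted p = 0.0948), while 4 of the 6 were above 0, with a median of 0.22. None of the 9 markers of striatal projection neurons was called, with 8 of 9 above 0 and a median of 0.10. Beside these lists, 25.1% of all genes tested in females were called and 11.9% were called lower. Pvalb and Sst of 6 GABAergic interneuron markers, Mbp and Mog of 3 oligodendrocyte markers and Aldh1l1 of 3 astrocyte markers fell. Of these 3 lists, 2 of 6, 0 of 3 and 1 of 3 were above 0. With the cortical score none of these 5 was called, and 0 of 3 microglial and 0 of 3 endothelial markers were called without it. Apart from the cortical score, their part in the values of the 8 genes was not tested.

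Within groups the genes varied together from mouse to mouse. Deviations of log2 CPM from the group means were correlated over the 24 mice, with 100000 permutations within groups, and 19 of the 28 pairs passed an adjusted p of 0.10, 11 with a positive and 8 with a negative r. Chat and Slc18a3 had a Pearson r of 0.98 (permutation p = 1e-05, the smallest possible, adjusted p = 3.1e-05) and a Spearman rho of 0.95 (permutation p = 1e-05). The part in this r of unspliced Chat reads, which would be counted for Slc18a3, was not tested. Without Con female 3 and MSUS male 6, the mice farthest from the median, r was 0.96. Chat and Slc5a7 had r = 0.94 (permutation p = 1e-05, adjusted p = 3.1e-05) and rho = 0.92 (permutation p = 1e-05), with r = 0.89 without those mice. Chat and Lhx8 had r = 0.94 (permutation p = 1e-05, adjusted p = 3.1e-05) and rho = 0.87 (permutation p = 2e-05), with r = 0.91 without them. Chat and Ache had r = 0.89 (permutation p = 1e-05, adjusted p = 3.1e-05) and rho = 0.86 (permutation p = 1e-05), with r = 0.89 without them. Within library set 1 (libraries numbered 1 to 12 in the labels) and set 2 (13 to 24), r was 0.98 and 0.98 for Slc18a3, 0.98 and 0.98 for Slc5a7, 0.91 and 0.97 for Lhx8, and 0.93 and 0.96 for Ache.

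The receptors stood apart from this group. Chrm3 went against Chat, with r = -0.80 (permutation p = 0.00014, adjusted p = 0.0003) and rho = -0.71 (permutation p = 0.00101, adjusted p = 0.00202), and r was -0.64 without Con female 3 and MSUS male 6 and -0.90 and -0.73 within the library sets. Chrm2 and Chrm3 rose and fell together, with r = 0.76 (permutation p = 9e-05, adjusted p = 0.00021) and rho = 0.85 (permutation p = 5e-05, adjusted p = 0.000156), at 0.87 without Con female 3 and Con male 6 and at 0.97 and 0.58 within the sets. Chrm2 and Chat had r = -0.33 (permutation p = 0.150, adjusted p = 0.183) and rho = -0.38 (permutation p = 0.103, adjusted p = 0.138), at -0.04 without the 2 farthest mice and at -0.79 and 0.07 within the sets, so that the sets disagreed in sign. Chrm1 and Chat had r = -0.40 (permutation p = 0.0619, adjusted p = 0.0912) and rho = -0.24 (permutation p = 0.272, adjusted p = 0.318). That relation rested on a few mice, since r was -0.25 without Con female 3 and MSUS male 6, 0.27 without these and Con male 6, and -0.06 and -0.63 within the sets.

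**Figure D4:**
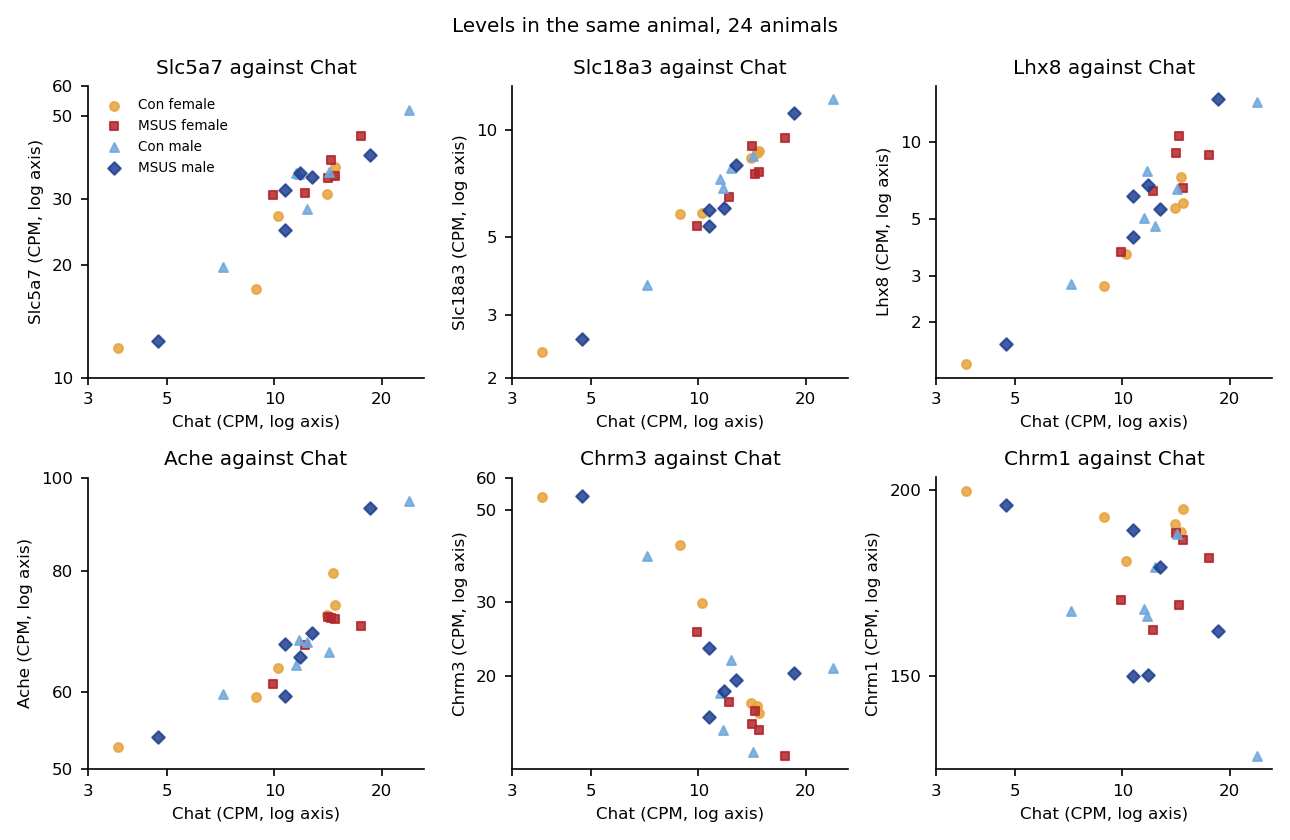
Levels in CPM of 6 genes (y axes) against that of Chat (x axes) in the same mouse, on log axes, for 24 mice with a symbol for each group. Slc5a7, Slc18a3, Lhx8 and Ache rise with Chat in all 4 groups, Chrm3 falls with it, and Con female 3 and MSUS male 6 lie at the low end of Chat and the high end of Chrm3.

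The same deviations were set against the cortical marker score and the share of pairs that overlapped no gene, 16 relations in all. Lhx8 fell most closely with the cortical score, with r = -0.91 (permutation p = 1e-05, adjusted p = 4e-05) and rho = -0.93 (permutation p = 1e-05, adjusted p = 5.33e-05), and r was -0.90 without the 2 mice farthest from the median score and -0.89 and -0.94 within the library sets. Chat, Slc5a7, Slc18a3 and Ache also fell with it, with r between -0.79 and -0.78 (adjusted permutation p between 4e-05 and 6.4e-05). Chrm3 rose with it, with r = 0.75 (permutation p = 5e-05, adjusted p = 0.000133) and rho = 0.70 (permutation p = 0.00039, adjusted p = 0.00104), and r was 0.78 and 0.75 within the sets. Chrm1 had r = 0.31 with the score (permutation p = 0.170, adjusted p = 0.240) and r = -0.40 with the share of pairs outside genes (permutation p = 0.114, adjusted p = 0.183). Of the 8 genes 2 passed an adjusted p of 0.10 with that share, Chrm2 with r = -0.42 (permutation p = 0.0324, adjusted p = 0.0741) and rho = -0.45 (permutation p = 0.0317, adjusted p = 0.0715), and Chrm3 with r = -0.44 (permutation p = 0.0391, adjusted p = 0.0781) and rho = -0.42 (permutation p = 0.0372, adjusted p = 0.0715). Without MSUS males 1 and 6 r was -0.27 and -0.25, and within the library sets it was -0.50 and -0.12 for Chrm2 and -0.36 and -0.26 for Chrm3. After the cortical score was taken out as a trend, Chat still had r = 0.95 with Slc18a3, 0.88 with Lhx8, 0.85 with Slc5a7 and 0.72 with Ache. With Chrm3 it had r = -0.52 (permutation p = 0.0155, adjusted p = 0.0333) and rho = -0.37 (permutation p = 0.0897, adjusted p = 0.168), and r was -0.21 without Con female 3 and MSUS female 5, on which the relation thus rested.

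**Figure D5:**
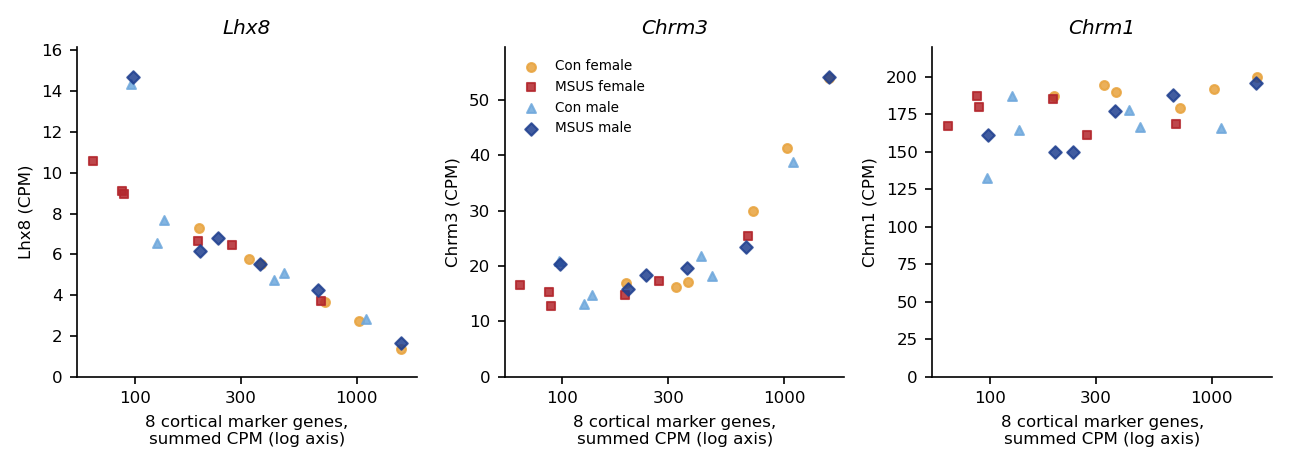
Level of Lhx8, Chrm3 and Chrm1 in CPM (y axes from 0) against the summed CPM of 8 cortical excitatory neuron markers (x axes, log scale) in 24 mice. Lhx8 falls along the axis and Chrm3 rises at its upper end, where Con female 3 and MSUS male 6 nearly coincide at 53.9 and 54.1 CPM of Chrm3, whereas Chrm1 shows no clear trend.

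Among 21430 other genes, those most like Chat in these deviations included Ecel1 (r = 0.99), Slc10a4 (0.97), Insrr (0.97) and Slc32a1 (0.96). Ecel1, an endopeptidase gene, is on the list of cholinergic interneuron markers, Slc10a4 encodes a vesicular protein of cholinergic and monoaminergic neurons, and Slc32a1 encodes the vesicular GABA transporter. Without Con female 3 and MSUS male 6 the r of these 4 lay between 0.91 and 0.98. Those most like Chrm1 included Synpo (r = 0.94), Ptk2b (0.93), C1qtnf4 (0.90) and Dlgap4 (0.90), between 0.84 and 0.91 without Con male 6 and MSUS male 6. Synpo and Dlgap4 encode proteins of dendritic spines or the postsynaptic density. These r are descriptions over 24 mice, and within a mouse the genes compared share a library and its depth.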

How the data were processed

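RNA came from bilateral NAc punches, and rRNA-depleted libraries were sequenced without poly(A) selection. Per the study's methods and the submitters' processing notes, the authors called bases with CASAVA 1.8, aligned reads to mm10 with STAR 2.6.1b and deposited raw gene counts per strand setting, with no normalization, in 1 file per library. The sense-strand column was used, and rows that name no gene were left out of library sizes, with their share given as the share of pairs outside genes. Gene symbols and positions came from GENCODE on GRCm38, which matched 52489 of 52636 identifiers, and promoters came from RefSeq on GRCm38.p6. The 8 genes, the pathway and marker lists and the tests were chosen with earlier results of these data known.

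Each comparison was fitted with the quasi-likelihood test of edgeR 4.0.16 (R 4.3.3, TMM, at least 10 counts by filterByExpr) on its own 12 mice, or on 24 for the interaction. P-values were adjusted over all genes tested, and a gene was called under 0.10, the threshold of the study. The study fitted cycle stage, which was not used here. Standard errors are on the log2 scale. CPM used the library total over the genes that passed the filter, scaled by its TMM factor, and 0.5 counts were added for log2 CPM. Named beside the 8 genes are genes of the lists that passed, the receptor list, gene models that lie in or overlap the 8, and the 5 genes most like Chat and the 5 most like Chrm1, of which 1 each is not reported here; markers named for single mice and Isl1 were chosen after their values were seen. Alternatives were DESeq2 1.42.0, its size factors, other filters, unstranded counts and a replicate block. Others were offsets for base composition and length, a fit of all mice and leaving out each mouse. Covariates were library set, share of pairs assigned to no gene, splice events per pair from the study's supplement and cortical score. Fits of each library set alone and without the 3 mice that stood apart were chosen after seeing the data. The scripts were tested on simulated data. The labels give each mouse its own library, and no 2 libraries of the same group agreed within sampling noise (60 pairs). Pairs from different groups were not compared in this way. Litters are not given in the labels, so p-values measure the spread between mice and not between litters.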

Additional observations from a re-analysis of the deposited data

Results flagged for a closer look

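In 4 of the 32 sets of 6 mice (8 genes in 4 groups) 1 mouse lay farther from the rest than Dixon's 95% critical value for 6 values allows, and chance alone flags about 1 set in 20. Chrm3 was 25.46 CPM in MSUS female 1, where the next mouse had 17.23 CPM, and 38.75 CPM in Con male 5, where the next had 21.83 CPM. In MSUS males Chrm3 was 54.11 CPM in MSUS male 6 and 23.35 CPM in the next. Ache was 94.57 CPM in Con male 6, against 67.89 CPM in the next Con male. The summed cortical markers were 1588 CPM in MSUS male 6, 1099 CPM in Con male 5 and 689 CPM in MSUS female 1, each the highest of its group, and the part of this in the Chrm3 levels of single mice was not tested.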

How the results depend on the processing

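In females 0 of the 8 genes were called at an adjusted p under 0.05, with no filter on low counts, with a replicate block, with the share of pairs outside genes, splice events or the cortical score as a covariate, with GC and length offsets alone or with the block, in the fit of all 24 mice, and in library set 1 or library set 2 alone, while DESeq2 called 2. Leaving out 1 female gave 0 to 3 calls: 3 without Con female 4 (Lhx8, Chrm3 and Chrm1), 2 without MSUS female 1 (Lhx8 and Chrm3), Chrm3 alone without Con female 5 or 6, Chrm1 alone without Con female 1 or MSUS female 4 or 6, and 0 without any other. Between Con females and males, DESeq2 and counts regardless of strand each called 1, Chrm1. Over all genes in females, 5156 calls became 3126 at the stricter threshold, 1725 with the cortical score, 3354 with the offsets, 1958 with block and offsets, 23 and 0 in the library sets, and 0 with the share of pairs outside genes or splice events (1174 and 719 at an unadjusted p under 0.05), and 3358 and 3102 without MSUS female 2 or 3. In the interaction 0 became 3031 without MSUS male 1.

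With the cortical score the female log2 fold changes of Chat, Slc18a3, Chrm2 and Ache were -0.12, -0.25, 0.15 and -0.13, and the interaction of Lhx8 was -0.14. That of Ache was -0.0019 in library set 2 and ranged from -0.012 (without Con female 3) to 0.10 over the fits without 1 female. Counts regardless of strand put Ache in MSUS females at 77.3 CPM. The r of Chat with Chrm1 was -0.37 with the share of pairs outside genes removed, -0.27 with the cortical score removed, -0.060 and -0.63 in the library sets and 0.27 without the 3 mice that stood apart. The r of Chat with Chrm2 was -0.79 and 0.067 in the sets and -0.61 without those mice, and that of Chrm2 with Chrm3 was 0.58 in set 2. Between 14 and 21 of 28 pairs passed. The cause of these changes was not tested.

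The replicate block ended the call of Chrm1 in females, leaving 0 of the 8 genes called and 3800 genes in all, and changed no other call of the 8. The labels do not say what a shared number marks, and same-numbered Con and MSUS females correlated between -0.39 and 0.45, 4 of 6 pairs over 0.1 and 2 highest with their own number, so the numbers were not read as pairs. Lhx8 had 71 to 803 and Slc18a3 123 to 656 counts per library. This adds counting noise to a spread between mice of 53.7% and 33.5% (coefficient of variation over all 24 mice).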
